A study of Mus musculus with 4 samples.

Results

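RUNX1, RUNX2 and RUNX3 are transcription factors that bind DNA through a shared Runt domain, and CBFB is their common partner, which does not bind DNA itself and raises their affinity for it. RUNX1 is known for its part in blood formation, RUNX2 for bone and cartilage, and RUNX3 for T cells and sensory neurons, while fibroblasts and other mesenchymal cells use RUNX1 and RUNX2 as well. Each Runx gene is known to have a distal promoter, P1, and a proximal one, P2, which give proteins with different first residues. Open chromatin at these 4 genes was taken from 4 lists of ATAC-seq peaks, where ATAC-seq marks DNA that a transposase can reach. Every peak over a gene body or within 100 kb of it was counted, and peaks from several lists were merged into 1 region wherever they had 1 bp or more in common. This gave 241 regions of 256632 in the whole data set. Of these, 73 lay at Runx1, 56 at Runx2, 59 at Runx3 and 53 at Cbfb.

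The lists came from 1 library each. Mouse embryonic fibroblasts (MEF) and induced pluripotent stem cells (iPSC) carry the strain label A12 (Mbd3 flox/-), with one floxed and one lost copy of Mbd3, the gene of a chromatin repressor subunit. Embryonic stem cells (ESC) are of line v6.5. The fourth population, called the intermediate here, is of B6/129 strain with the transgenes Rosa26-TdTomato (from a B6 female) and Col1a-OSKM (from a 129 male). Its fibroblasts were driven towards neural stem cells by Oct4, Sox2, Klf4 and Myc (OSKM), with doxycycline, 4-hydroxytamoxifen and a JAK1 inhibitor at 0.5 µM, to day 9 by its title and protocol (its source field says day 6). It was sorted for tdTomato, switched on by a Cre recombinase under control of Nanog, so cells were selected for past Nanog activity. By its title, the study concerns transient pluripotency on the way to another somatic cell type. The labels say that the intermediate was free of MEF feeders and say nothing of feeders for iPSC and ESC. Strain label and cell type cannot be told apart except between MEF and iPSC.

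The lists held 129533 to 157212 peaks. Peak height is a whole number with no stated scaling to library size, and read depth is unknown, so heights rank peaks inside a list and do not compare libraries. With 1 library per group there is no replicate check and no test. Wilson 95% intervals on shares cover counting error only, and neighbouring regions are not independent. A region is called open in a list that holds a peak there, and a site with no listed peak was not shown to be closed. By peaks within 1 kb of a gene end, 8 of 8 fibroblast markers were listed in MEF, against 2 for the intermediate, 4 for iPSC and 5 for ESC. Of 8 pluripotency markers MEF had 0, the intermediate 6 and both pluripotent libraries 8. Of 8 blood markers, 3 were listed in MEF (Csf1r, Cd68 and Tal1), 2 each in the intermediate and iPSC and 3 in ESC, and the pan-leukocyte gene Ptprc in none. Among 5 endothelial markers 2, 1, 3 and 2 were listed in MEF, the intermediate, iPSC and ESC, and Pecam1 and Tie1 in none. Among 6 bone and cartilage markers the counts were 3, 4, 5 and 4 in that order. Of all protein-coding genes, 64.3%, 62.3%, 65.3% and 67.2% had an end peak in these lists.

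The 3 Runx genes share a sequence at their first start site. The longest run of bases common to the 3 first-start windows of RefSeq (GRCm38.p6, 250 bases before to 50 after the start) is 18 bases long and holds 2 copies of the RUNX motif TGTGGT, read as ACCACA on this strand. It is shown here, in capitals within 30 bases, because every one of the 3 starts had a peak in MEF and in no other list.
Runx1 start 1: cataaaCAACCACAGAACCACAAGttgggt
Runx2 start 1: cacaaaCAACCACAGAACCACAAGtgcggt
Runx3 start 1: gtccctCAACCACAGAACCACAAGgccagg
The word begins at base 27 from the Runx1 start (chr16:92826025-92826054 for the 30 bases, minus strand), at base 22 from the Runx2 start (chr17:44814583-44814612, minus strand) and at base -136 from the Runx3 start (chr4:135120503-135120532, plus strand), counting the start as 1. Of 32619 start-site windows, 4 hold these 18 bases on either strand, and the fourth is the lncRNA Gm16225, whose window overlaps that of Runx3. The tandem ACCACANNACCACA was found in 7 windows, 0.0215% of all. The single motif TGTGGT, searched on both strands, was found in 16.6% of windows and its variant TGCGGT in 6.44%. The Runx1 window held 2 copies of TGTGGT and that of Runx3 2, all within the tandem, and that of Runx2 held 3 copies and 1 of TGCGGT. None of these was found in the windows of the second Runx1 start, the second Runx3 start or the Cbfb start. A match of letters is a description and shows no binding. The tandem was chosen as a search word after the shared run was seen.

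The first starts had peaks in MEF alone, with the shared word inside the peak each time. At the Runx1 P1 start, at chr16:92825721-92826390, the MEF peak was 66 high, taller than 84.1% of the MEF list, and its summit lay 46 bp from the word. At the Runx2 start, at chr17:44814491-44815221, it was 41 high, taller than 67.1% of the list, with the summit 319 bp from the word. At the Runx3 P1 start, at chr4:135120201-135120870, it was 35 high, taller than 58.3%, with the summit 114 bp away. The intermediate, iPSC and ESC had no listed peak over any of the 3. Of all start-site windows, 3.07% had a peak in MEF and in no other list.

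The second starts differed between the genes. The Runx1 P2 start, at chr16:92697329, lies under a region of 3270 bp at chr16:92696211-92699480, whose middle is 128 kb into the gene. Its heights were 187 (MEF), 115 (intermediate), 162 (iPSC) and 186 (ESC), each above 91.9% to 97.8% of its own list. The summits stood at -96, -96, -116 and -76 bp from the start in that order, so the same stretch was listed in all 4 populations. At the Runx3 P2 start, at chr4:135152021-135153250, a peak was listed in MEF with a height of 44 and in ESC with 52, and none in the intermediate or iPSC. Windows open in MEF and ESC alone made up 0.871% of all, and windows open in every list 37.0%. RefSeq as used here lists 1 start for Runx2, and no second one was assigned. Of 4162 genes with 2 or more start windows, 88 had, like Runx1, one window open in MEF alone and one open in all 4 lists, which is 2.11%.

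Cbfb, which encodes the partner of all 3 factors, had a peak at its start in every list. The region at chr8:105169901-105172070 had heights of 228 (MEF), 153 (intermediate), 104 (iPSC) and 164 (ESC). These were taller than 98.7%, 95.5%, 87.6% and 96.9% of the peaks in their lists.

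**Figure D1:**
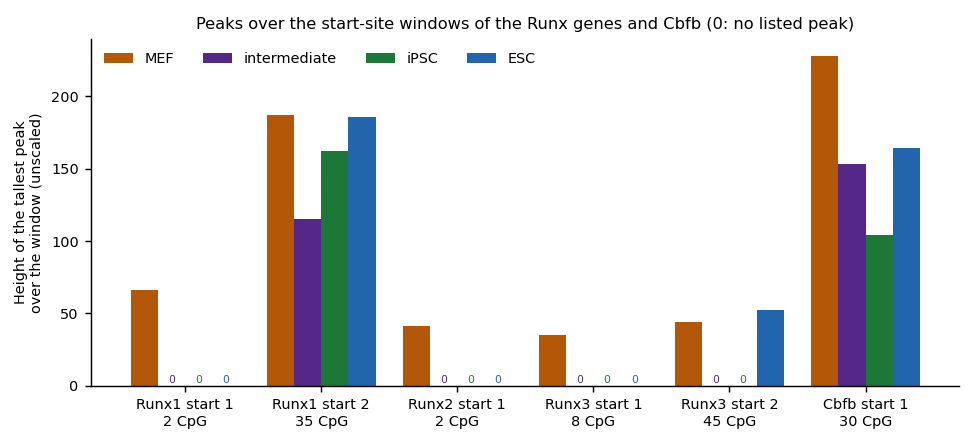
Height of the tallest peak (vertical axis, unscaled, so not comparable between libraries) over the 300-base window of each listed start site of Runx1, Runx2, Runx3 and Cbfb, with 1 bar per library and the number of CpG dinucleotides in the window below the name. A 0 marks a window with no listed peak. The first starts of the 3 Runx genes have a bar in MEF alone, and the second Runx1 start and the Cbfb start have bars in all 4 libraries.

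The starts also differ in base composition. CpG dinucleotides number 2 in the first window of Runx1, 2 in that of Runx2 and 8 in that of Runx3, and 35, 45 and 30 in the second Runx1 window, the second Runx3 window and the Cbfb window. Their GC content is 45.0%, 45.3% and 63.7% for the first starts and 69.0%, 77.3% and 69.7% for the others. The 120 bases before the start are shown for both Runx1 starts, the second Runx3 start and the Cbfb start, with each CG in capitals, to make this contrast visible. They hold 2, 8, 21 and 13 CG in that order. The stretches before the first Runx2 and Runx3 starts, not shown, hold 0 and 5.
Runx1 start 1: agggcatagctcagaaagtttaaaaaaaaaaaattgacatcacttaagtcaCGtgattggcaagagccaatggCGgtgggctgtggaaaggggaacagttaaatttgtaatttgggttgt
Runx1 start 2: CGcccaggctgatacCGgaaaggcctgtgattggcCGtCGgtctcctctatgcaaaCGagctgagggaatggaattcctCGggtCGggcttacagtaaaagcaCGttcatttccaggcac
Runx3 start 2: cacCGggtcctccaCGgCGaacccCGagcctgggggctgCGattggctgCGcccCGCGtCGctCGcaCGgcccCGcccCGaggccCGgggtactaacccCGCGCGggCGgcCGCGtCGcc
Cbfb start 1: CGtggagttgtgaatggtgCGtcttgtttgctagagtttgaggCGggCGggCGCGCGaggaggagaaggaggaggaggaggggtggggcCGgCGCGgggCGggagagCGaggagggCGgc
These stretches lie at chr16:92826075-92826194 and chr16:92697330-92697449 on the minus strand, and at chr4:135152425-135152544 and chr8:105170554-105170673 on the plus strand. Over all start-site windows, 85.8% of those with 20 or more CpG had a peak in every list and 0.333% in MEF alone. With 0 to 4 CpG the shares were 2.03% and 4.29%, and with 5 to 9 CpG 14.7% and 5.78%. Of windows with 20 or more CpG, 90.8% had a peak in the intermediate, where the second Runx3 window, with 45 CpG, had none. The ends of the genes opposite the starts had 0 peaks within 1 kb in any list. In all, 4 of the 8 gene ends had a peak in MEF and 1 each in the intermediate, iPSC and ESC, where 38.4%, 37.1%, 38.1% and 39.6% of the ends of protein-coding genes did.

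Runx1 had the highest number of regions open in MEF alone of the 4 genes, in a longer window than Runx3, which had more of them per 100 kb (13.6 against 12.0). Of its 73 regions, 51 were listed in MEF and nowhere else, 8 in the intermediate alone, 6 in iPSC alone, 2 in ESC alone, 1 in iPSC and ESC together and 2 in all 4 lists. The shares of these patterns over the whole data set were, in the same order, 32.4%, 18.2%, 13.9%, 8.13%, 7.20% and 7.03%. MEF had 56 regions there, the intermediate 11, iPSC 11 and ESC 6, where the medians over 21627 protein-coding genes were 16, 13, 11 and 11. Its count of regions open in MEF alone exceeded that of 99.1% of these genes, and per 100 kb of window, at 12.0 against a median of 3.84, that of 92.3%. Inside the body MEF peaks covered 93.0 bp per kb, against 38.1 (intermediate), 24.4 (iPSC) and 24.9 (ESC). The medians over 6000 genes of at least 40 kb were 30.2, 25.7, 27.9 and 25.2 bp per kb. The MEF cover exceeded that of 90.8% of these genes, and the others that of 65.3%, 43.4% and 49.4%. Neighbouring MEF peaks were often 10 bp apart, and joining those left 30 regions open in MEF alone.

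The MEF regions at Runx1 lay in both flanks, at the first start and in the body, and none lay at the far end. The first-start side held 10 of them before the start, the body 32 and the far flank 13, and the start itself 1. Of those in the body 6 lay between the starts and 26 further on, the region over P2 included. The tallest after P2 was a region of 1390 bp at chr16:92620491-92621880, 205 kb from the first start, with heights of 177 in MEF, 54 in iPSC and 23 in ESC and none in the intermediate. Others open in MEF alone were 92 high at chr16:92654301-92655300 and 77 high from 92710071 to 92710800, and in the flanks 77 high from 92581791 to 92582331 beyond the far end. Before the start the tallest MEF peak reached 38, at chr16:92864221-92864850. A region from 92827651 to 92828780, at -2.14 kb from the start, was listed in MEF (32) and iPSC (53). No exon map was used here, so introns and internal exons were counted together. From 3.62 to 46.3 kb after the first start, in the stretch between the starts, no list had a peak, and from 69.0 to 115 kb none either. These bare stretches of 42.6 and 46.3 kb were the longest in the gene.

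Few MEF regions at Runx1 had a peak in the intermediate. These were 3 of 56, 5.36% (Wilson 95% interval 1.84 to 14.6), against 21.7% over all MEF regions. In iPSC it was 4 of 56, 7.14% (2.81 to 17.0), and in ESC 3 of 56, 5.36% (1.84 to 14.6), against 21.6% and 22.4%. All regions include gene ends, of which Runx1 has few. Among regions over 1 kb from every gene end the share in the intermediate was 5.45% (1.87 to 14.9) at Runx1. In the whole data set it was 14.0%, a value inside that interval. The shares in iPSC and ESC were not computed for such regions. The 3 regions were P2, a region at chr16:92777891-92779271 and one from 92623271 to 92624880. The second of these was listed everywhere, at 35 (MEF), 81 (intermediate), 24 (iPSC) and 24 (ESC). The third had heights of 102 in MEF and 61 in the intermediate and none in the pluripotent cells. MEF regions without a peak in the intermediate were lower, with a median MEF height of 28 against 102 for the 3, and over all regions the medians were 29 and 70.

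Inside Runx1 the intermediate had 8 regions of its own, and none in the flanks. Joining sub-peaks 10 bp apart left 5, and in the taller 50% of each list 4 regions were open in it and not in MEF. The 8 regions of the main count were 72.7% (43.4 to 90.3) of the 11 regions of the intermediate there, against 52.0% of all its regions. The tallest was 79 high at chr16:92757431-92758360, 68.2 kb after the first start, taller than 84.4% of the list. The next was 58 high from 92639451 to 92640170, and one of 41 lay from 92644841 to 92645451. Another, 36 high, from 92779281 to 92779820, adjoined the region listed everywhere. The region open in both pluripotent libraries and not in MEF, from 92605421 to 92606371 near the far end, had heights of 64 in iPSC and 84 in ESC and no peak in the intermediate. Of the pluripotent cells, iPSC had 7 regions in the flanks of Runx1, 6 of them in no other list, and ESC 0. The tallest of these was 81 high in iPSC, at chr16:92514591-92515430 within Clic6.

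**Figure D2:**
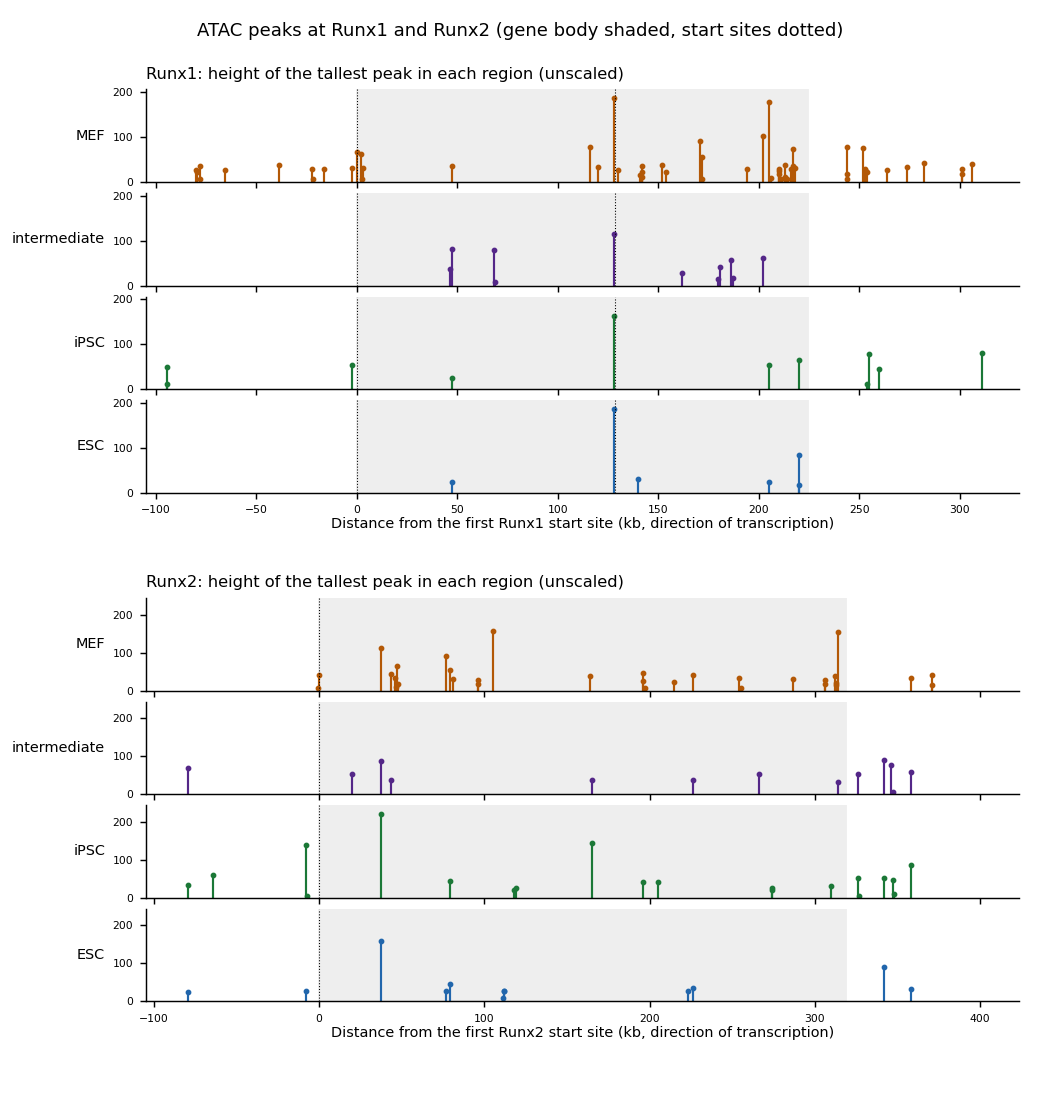
Distance from the first start site in kb along transcription (horizontal) against the height of the tallest peak of each region (vertical, unscaled), with 1 track per library, the gene body shaded and listed start sites dotted. At Runx1 the MEF track has 56 regions against 11, 11 and 6 in the other tracks. At Runx2 the tracks differ less, with 32, 13, 20 and 12.

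At Runx2, the gene of the bone factor, a smaller share of regions was open in MEF alone than at Runx1. It was 42.9%, against 69.9% at Runx1, 59.3% at Runx3, 41.5% at Cbfb and 32.4% over all regions. Of 56 regions, 24 were open in MEF alone, 4 in the intermediate alone, 11 in iPSC alone, 4 in ESC alone and 2 in all lists. MEF had 32, the intermediate 13, iPSC 20 and ESC 12, and MEF peaks covered 52.2 bp per kb of the body against 17.9, 23.7 and 23.6. The MEF cover exceeded that of 73.3% of the 6000 genes, and the others that of 37.4%, 41.9% and 46.4%. Per 100 kb of window the regions open in MEF alone came to 4.63, near the median of 3.84. The upstream flank held 0 MEF regions, 4 in iPSC, 2 in ESC and 1 in the intermediate. It overlaps Supt3, a subunit gene of a histone acetyltransferase complex, whose body shares 37680 bp with Runx2.

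The tallest MEF region of Runx2 was open in MEF alone, 156 high at chr17:44709341-44710630, 105 kb after the start. It was taller than 96.6% of the MEF list. A region near the far end, from 44500081 to 44501201, had heights of 154 in MEF and 33 in the intermediate and none in the pluripotent cells. From 44733841 to 44736900 a broad region of 3060 bp had heights of 54 in MEF, 45 in iPSC and 47 in ESC and none in the intermediate. The region beside it, from 44737601 to 44738730, was 91 high in MEF and 27 in ESC. From 44587791 to 44588630 a region was listed in MEF (41), the intermediate (38) and ESC (36), and from 44617911 to 44618651 one in MEF (47) and iPSC (42). A region from 44770621 to 44771540 was listed in MEF (44) and the intermediate (37) alone. The tallest peaks of the other 3 lists in the body lay from 44776501 to 44778040, with heights of 113 (MEF), 88 (intermediate), 222 (iPSC) and 160 (ESC). This region lies over one of the 2 ends of Supt3 and 37.4 kb after the Runx2 start, inside the Runx2 body. Which gene it serves was not tested.

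Of 32 MEF regions at Runx2 the intermediate had 5, 15.6% (6.86 to 31.8), an interval that holds the 21.7% over all regions. Of these, 2 had no peak in iPSC or ESC. It had 8 regions that MEF lacked, 61.5% (35.5 to 82.3) of its 13, where 71.7% of all intermediate regions had no MEF peak. Of these 8, 4 were also listed in iPSC or ESC. The tallest lay beyond the far end at chr17:44472301-44473510, where heights were 89 (intermediate), 51 (iPSC) and 90 (ESC). Another, from 44893301 to 44894100, measured 70, 34 and 24 in that order. Of the 3 regions open in iPSC and ESC and not in MEF, the intermediate had these 2, where the share over all such regions was 35.8%. The third, from 44821871 to 44822670 at -7.64 kb from the start, had heights of 139 in iPSC and 27 in ESC. An iPSC peak of 144 from 44648741 to 44649880 was matched by 37 in the intermediate and by none in ESC. In iPSC 55.0% (34.2 to 74.2) of 20 regions were in no other list, against 38.3% of all iPSC regions.

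Runx3 also had many regions open in MEF alone for the length of its window, and few in iPSC. Of 59 regions, 35 were open in MEF alone, 10 in the intermediate alone, 1 in iPSC alone, 4 in ESC alone and 1 in all. MEF had 42, the intermediate 15, iPSC 4 and ESC 10. Per 100 kb of window 13.6 regions were open in MEF alone, more than at 94.7% of genes, and MEF peaks covered 132 bp per kb of the body, more than at 96.1% of the 6000 genes. ESC peaks covered 67.8 bp per kb, more than at 91.3%, while iPSC had 13.3 and the intermediate 18.2. The number of iPSC regions exceeded that of 9.39% of genes.

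The tallest MEF peak near Runx3 that was open in MEF alone lay before the start at chr4:135095291-135096310, 145 high and taller than 96.0% of the list. Inside the body MEF peaks were low, the tallest being the 44 over P2. The intermediate had 1 region in the body, at chr4:135166301-135167600, listed at 23 (MEF), 29 (intermediate) and 33 (ESC). iPSC had 1 as well, from 135158511 to 135159430, 47 high and 43 in ESC. A pair of regions before the start were open in MEF and the intermediate and not in the pluripotent cells, 51 and 53 high from 135073381 to 135074220 and 40 and 33 high from 135079621 to 135080451. Of 42 MEF regions the intermediate had 4, 9.52% (3.77 to 22.1), iPSC 2, 4.76% (1.32 to 15.8), and ESC 4, 9.52% (3.77 to 22.1). Over all MEF regions these shares were 21.7%, 21.6% and 22.4%, of which the first lies inside the Runx3 interval and the other two above theirs. Away from gene ends the share in the intermediate was 7.69% (2.65 to 20.3), against 14.0% for all such regions, and those in iPSC and ESC were not computed.

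The regions gained in the intermediate at Runx3 lay mostly outside the gene. The 11 gained were 73.3% (48.0 to 89.1) of the 15 intermediate regions there, near the 71.7% of all intermediate regions that had no MEF peak. Of the 11, 10 were downstream and 0 inside the body. The one before the start, from 135020001 to 135020890, was 58 high and 44 in ESC. With only the regions nearest to Runx3 the count was 2. The tallest of the 11, 78 high from 135245991 to 135246711, lies in Clic4, a chloride channel gene. The tallest region of the window in all 4 lists was over the Clic4 end farther from Runx3, at chr4:135271691-135273680. Its heights were 393 (MEF), 171 (intermediate), 157 (iPSC) and 222 (ESC).

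Cbfb lies in a gene-dense stretch, and most regions of its window lay nearest to other genes. Only 8 of its 53 regions had Cbfb as the nearest protein-coding gene, and 20 lay within 1 kb of another gene's end. In the whole window 22 regions were open in MEF alone, 3 in the intermediate alone, 7 in iPSC alone, 3 in ESC alone and 12 in all lists, 22.6% (13.5 to 35.5) against 7.03% of all regions. Of 38 MEF regions the intermediate had 13, 34.2% (21.2 to 50.1), an interval that holds the 21.7% over all regions. With the nearest regions alone it was 1 of 8. Away from gene ends it was 10.5% (2.94 to 31.4), against 14.0% over all regions, and with adjoining sub-peaks joined 56.5%, against 32.4%. Inside the body MEF had 4 regions in 1 stretch and the other lists 0. The tallest of them, at chr8:105186461-105187101, was 171 high, taller than 97.3% of the MEF list, 16.1 kb after the start. This was the tallest region at Cbfb open in MEF alone. The tallest gained region, 200 high in the intermediate and listed nowhere else, lay 57.6 kb after the start from 105227741 to 105228900, within D230025D16Rik, and was taller than 97.7% of its list. A region listed in iPSC and ESC and not in MEF or the intermediate, from 105231361 to 105232280, was 38 high in ESC. Of the regions before the start, that from 105152411 to 105153630 had heights of 39 in MEF, 56 in iPSC and 87 in ESC and none in the intermediate.

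**Figure D3:**
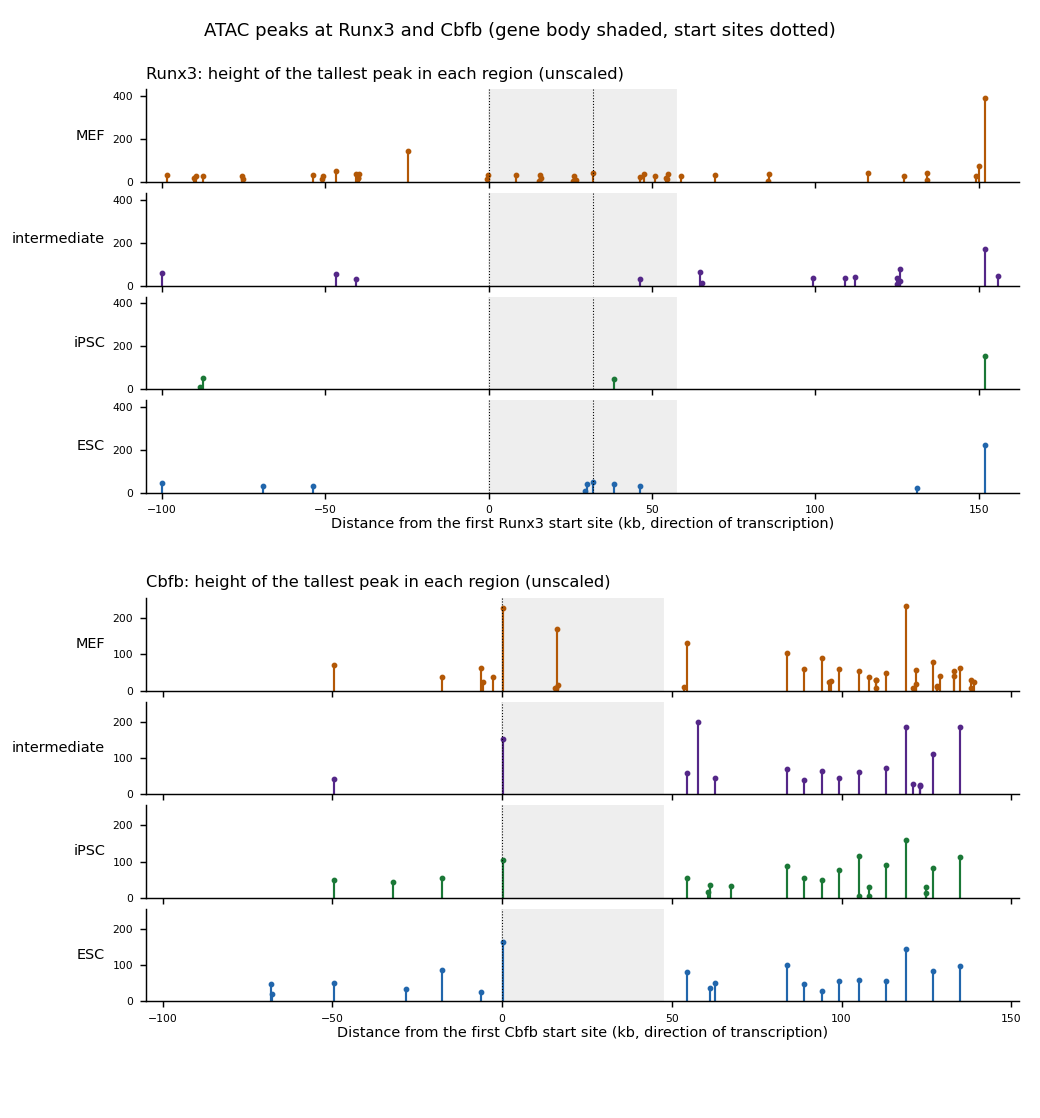
Distance from the first start site in kb along transcription (horizontal) against the height of the tallest peak of each region (vertical, unscaled), with 1 track per library, the gene body shaded and listed start sites dotted. The Runx3 body holds 1 region each in the intermediate and iPSC tracks, and inside the Cbfb body away from the start the peaks are in the MEF track alone.

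**Figure D4:**
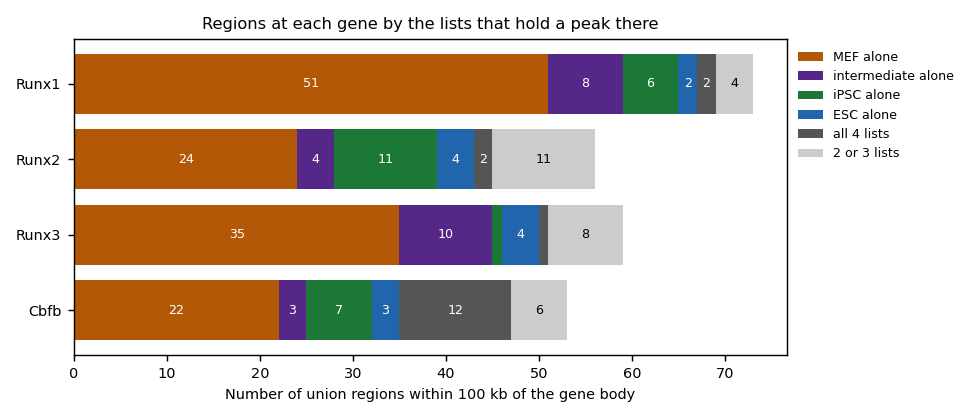
Number of regions within 100 kb of each gene body (horizontal), split by the lists that hold a peak in the region. Regions open in MEF alone number 51 at Runx1, 24 at Runx2, 35 at Runx3 and 22 at Cbfb, and regions open in all lists 12 at Cbfb and 1 or 2 at the Runx genes.

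Over the 4 genes, 132 of 168 MEF regions were in no other list, 78.6% (71.8 to 84.1), against 70.9% of all MEF regions. The 70.9% includes gene ends, and its value away from them was not computed. With sub-peaks joined, the MEF regions in no other list were 30 of 35 at Runx1 and 14 of 22 at Runx2. At Runx3 they were 19 of 26 and at Cbfb 7 of 23, and the matching share over all regions was not computed. Of 138 MEF regions with no peak in iPSC or ESC, the intermediate had 6, 4.35% (2.01 to 9.16), near the 5.11% over all such regions. Among MEF regions at least 100 high, a limit chosen after the values were seen, 9 of 13 had a peak in the intermediate, 69.2% (42.4 to 87.3), near the 73.7% of all such regions. The 4 without one were the Runx1 region of 177, the Runx2 region of 156, the Runx3 region of 145 and the Cbfb region of 171 described above, 1 at each gene. None of these 4 lay within 1 kb of an end of a protein-coding gene. Several of the 9 lay over ends of neighbouring genes, among them the Clic4 region of 393. Both the 69.2% and the 73.7% include gene ends.

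**Figure D5:**
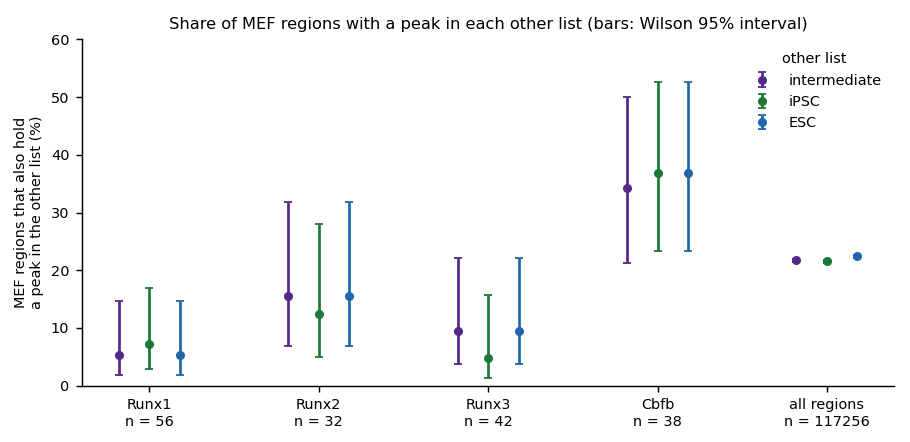
Percentage of the MEF regions of each gene, and of all MEF regions, that also hold a peak in the intermediate, iPSC or ESC list (vertical), with Wilson 95% intervals as bars and the number of MEF regions below each name. The Runx1 intervals lie below the values over all regions, 21.7%, 21.6% and 22.4%, and for Cbfb they lie around or above them. These values include gene ends. Away from gene ends (not drawn) the value over all regions in the intermediate was 14.0%, inside the Runx1 interval of 1.87 to 14.9. No such value was computed for iPSC or ESC.

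Genes with the most similar make-up were found by the Bray-Curtis distance between shares of the 15 possible combinations of lists, over 4 libraries and among genes with at least 20 regions. For Runx1 these were Ampd3 (0.061), Lyve1 (0.065) and Rasa3 (0.068), with a median distance of 0.45 over 16330 genes. The windows of Ampd3 and Lyve1 overlap, as do the bodies of Nos3 and Atg9b, named here for Cbfb. For Runx2 they were Lbh (0.093), Begain (0.094) and Scamp1 (0.099), for Runx3 Gkn1 (0.076), Xcr1 (0.082) and Tln2 (0.087), and for Cbfb Nos3 (0.059), Atg9b (0.081) and 1700022I11Rik (0.10). Among the members Runx1 and Runx3 were nearest, at 0.19, then Runx2 and Cbfb at 0.21, and the other pairs were 0.30 to 0.35 apart. The median distance over the 16330 genes was 0.36 for Runx2, 0.40 for Runx3 and 0.35 for Cbfb. Runx3 and Cbfb, at 0.35, thus stood at the Cbfb median, and Runx1 and Cbfb, at 0.34, near it.

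Genes that work with RUNX proteins had end peaks in most lists. Of 18 partners and cofactors, MEF and the intermediate each had 16 and both pluripotent libraries 14, where 64.3%, 62.3%, 65.3% and 67.2% of protein-coding genes did. Hdac4, a histone deacetylase that binds RUNX2, was listed in the intermediate alone (38). Of MEF end peaks over all genes 11.9% had none in the intermediate, and 15.8% of genes with none in MEF had one there. The corepressor genes Cbfa2t2 and Runx1t1 had end peaks in all 4 lists and Cbfa2t3 in none. Tle1, a Groucho corepressor, had heights of 352 (MEF), 484 (intermediate), 699 (iPSC) and 313 (ESC).

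Of 12 skeletal genes bound by RUNX2, an end was listed for 7 (MEF), 6 (intermediate), 6 (iPSC) and 7 (ESC), where the shares over all protein-coding genes were 64.3%, 62.3%, 65.3% and 67.2%. Sp7, an osteoblast factor, Mmp13, a collagenase, and Ihh, a cartilage signal, had one in MEF and not in the intermediate, with MEF heights of 33, 36 and 29. Of these, Sp7 and Ihh were listed in ESC as well, Sp7 also in iPSC. Bglap, which encodes osteocalcin, and Alpl, which encodes alkaline phosphatase, had one in the intermediate and not in MEF, with heights of 63 and 33. Both were listed in iPSC as well, Bglap at 30 and Alpl at 45, and Alpl also in ESC at 62. Ibsp, Col10a1 and Phex had none in any list. Of 12 blood genes bound by RUNX1 or RUNX3, 7 were listed at an end in MEF, 7 in the intermediate, 1 of them not among those of MEF, and 5 in each pluripotent library. Csf1r, the receptor of a macrophage growth factor, was listed in MEF alone with a height of 24. Gfi1b, a transcriptional repressor that works in blood lineages, was listed in the intermediate alone with 43.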

How the data were processed

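ATAC-seq was run on 50000 cells per library, with 30 minutes of transposition at 37 °C and 12 cycles of PCR, per the labels' protocols. Bowtie2, CASAVA 1.8.2, MACS 1.4.2-1, Picard and build mm10 are named, without roles, in the submitters' processing notes. The deposited files list start, end, summit and height of each peak per library, per the file headers. Heights are a deposited signal in whole numbers (at least 5) with no scaling stated. How the authors split peaks is not given in the sources used here, and splitting sets the number of regions.

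Peaks on the 19 autosomes and X were merged into union regions with Python 3.11.15 and pandas 2.3.3, after a check on simulated lists with known patterns. Gene bodies, start sites and sequences came from RefSeq GRCm38.p6, of the same assembly as mm10; all 4 members matched. Coordinates are as the files give them. An end peak lies within 1 kb of a gene end. No test was run, since each group has 1 library. Neighbours, the tallest peaks per zone, gene lists and the 3 most similar genes were named by rule; further regions open in 1 list, and those open in MEF and the intermediate at Runx3, were chosen after their values were seen. Genes within 200 kb of a member were left out of the similar genes. The members and lists were chosen with earlier results of these data known. Alternatives were joined sub-peaks, 50% overlap, the taller 50% of each list, equal lists, 500 bp peaks, other distances and a 2.5 kb end window; regions away from gene ends were added after the data were seen. The values of 1 listed cofactor gene are not reported here.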

Additional observations from a re-analysis of the deposited data

How the results depend on the processing

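The share of MEF regions with a peak in the intermediate stayed within its own Wilson interval at Runx1 (5.45% to 12.0%), Runx2 (13.8% to 23.8%) and Runx3 (5.56% to 15.4%) under all 9 alternatives. Over all regions it was 32.4% after joining sub-peaks, 31.1% with the taller 50% of each list, 25.2% with lists of equal length, 32.3% with peaks of 500 bp and 14.0% away from gene ends. At Cbfb it was 56.5% after joining sub-peaks, 52.2% with the taller 50%, 57.7% with peaks of 500 bp, 18.2% within 20 kb, 20% in the body alone, 12.5% with the nearest regions and 10.5% away from gene ends. The last 4 leave out most gene ends of the neighbours by construction. With a window of 2.5 kb, iPSC had a peak at 2 gene ends in place of 1, the added one at Runx1. With the same window MEF had a peak at 5 in place of 4, the added one at the far end of Runx3. The other counts of gene ends did not change under the 5 alternatives run. Joining sub-peaks brought regions open in MEF alone to 30 at Runx1, 14 at Runx2, 19 at Runx3 and 7 at Cbfb. Regions open in the intermediate and not in MEF numbered 4 to 8 at Runx1, 3 to 10 at Runx2, 0 to 14 at Runx3 and 0 to 11 at Cbfb. No paired analysis was possible because each group has 1 library. Unknown depth limits every missing peak.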

Other observations

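Of 17 protein-coding neighbours, genes whose body lay within 100 kb of a member, 13 had an end peak in all 4 lists (53.8% of all protein-coding genes did), 11 of them among the 13 neighbours of Cbfb. Several neighbours of Cbfb share a region at their ends, so these genes are not independent. E2f4, a cell cycle repressor, and Elmo3, an engulfment gene, share the region from 105304551 to 105306620. It gave the tallest end height of both in 3 lists, 187 (intermediate), 113 (iPSC) and 98 (ESC). In MEF it was 62 high, the tallest at Elmo3, while E2f4 had 80 at its other end. Clic6, the neighbour beyond the far end of Runx1, was listed at an end in iPSC (45) and in ESC (29) but in neither MEF nor the intermediate. The carboxylesterase genes Ces3b and Ces4a before Cbfb had none in any list.

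The tandem ACCACANNACCACA stood in 7 start-site windows. Besides those of the Runx genes and Gm16225 these were Olfr24 and Gm15462, with no listed peak in any library, and Gm12236, with heights of 56, 38, 54 and 39 in MEF, the intermediate, iPSC and ESC.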
